A study of Mus musculus with 69 samples.

Results

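The 10 angiogenic and endothelial genes described here are Vegfa, Vegfb, Vegfc, Kdr, Flt1, Angpt1, Angpt2, Tek, Pecam1 and Nos3, a list of symbols drawn up for their roles in vessels, with earlier results of these data known. All 10 were found among 24523 genes with values in the kidney libraries of NZB/W F1 mice, a cross of NZB and NZW that acquires spontaneous lupus nephritis as it ages. Each library held the RNA of 1 perfused whole kidney from 1 female mouse. The study asked whether the 24 h rhythms of the kidney are disturbed in nephritis and restored by treatment. The 30 young mice were untreated and 12 weeks old, with 7, 4, 4, 7, 4 and 4 mice at zeitgeber times (ZT, hours after lights on) 0, 4, 8, 12, 16 and 20. The 27 nephritic mice were untreated, 30 to 45 weeks old and proteinuric, with 7, 4, 4, 6, 3 and 3 mice at the same times. The 8 remission mice, aged 36 to 50 weeks, had been nephritic and were given cyclophosphamide once at 50 mg/kg, with 6 doses of CTLA4Ig (200 µg) and of anti-CD40L (250 µg) over 2 weeks. They were collected in remission 8 weeks after induction, 4 at ZT0 and 4 at ZT12. Diagnosis goes with age in these groups, since no old NZB/W mouse without disease or treatment is among them, and the effects of age and nephritis cannot be told apart.

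Blood vessels grow and persist through a small set of secreted factors and their receptors. Vascular endothelial growth factor A, made in the kidney by podocytes and tubule cells, acts on endothelial cells through its signalling receptor Kdr (VEGFR2), while Flt1 (VEGFR1) binds the same ligand tightly and limits its supply to Kdr. A parallel system consists of angiopoietin 1, which activates the endothelial receptor Tek (Tie2) and stabilises vessels, and angiopoietin 2, a context-dependent antagonist at the same receptor. Pecam1 is an adhesion protein of endothelial junctions that some leukocytes and platelets also carry, and Nos3 is the endothelial nitric oxide synthase. Loss of peritubular capillaries is a known feature of chronic kidney injury.

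Total counts ranged from 25257530 to 35744843 in young, 26596500 to 48075977 in nephritic and 13311278 to 21849912 in remission libraries. Of 4 libraries deposited as repeats of a mouse, the repeat of nephritic mouse RX11RU lay nearer to mouse RX11LU than to its own original, and no repeat entered the values given below unless it is named. Mouse s9, labelled remission at ZT12, had 27.3 CPM of the clock gene Arntl. Arntl stood at 3.24 to 4.93 CPM in the other ZT12 remission mice and at 22.9 to 28.9 CPM in those of ZT0. The calls of the 10 genes in the main remission fits, the list counts and the ratios are followed by their values without s9. The adrenal enzyme gene Cyp11b1 had more than 100 counts in 8 young libraries and 1 nephritic library. A first RNASeq set, all ZT0 and ZT12, held 6 of the young and 5 of the nephritic libraries, and set was a covariate in the tests. The remission libraries and the repeats share 1 sample numbering and were taken as a sequencing run of their own, which the labels do not state. In nephritic against young libraries all 14 leukocyte markers tested were higher (median log2 change 2.62) and all 10 proximal tubule markers were lower (median log2 change -0.77). Of all 17521 genes tested, 28.1% were called higher and 33.9% lower in that comparison. In a bulk library, fewer cells of a type and less RNA per cell cannot be told apart.

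The genes lie on 7 chromosomes of GRCm38, and each is protein-coding and was counted over its exons. Vegfa lies at chr17:46016993-46032369 (minus strand), Vegfb at chr19:6982473-6987651 (minus strand) and Vegfc at chr8:54077606-54187096 (plus strand). Kdr (chr5:75932827-75978458, minus strand), Flt1 (chr5:147561604-147726011, minus strand) and Nos3 (chr5:24364810-24384474, plus strand) share chromosome 5. Angpt1 lies at chr15:42424723-42676977 (minus strand), Angpt2 at chr8:18690263-18741562 (minus strand), Tek at chr4:94739289-94874976 (plus strand) and Pecam1 at chr11:106654217-106750628 (minus strand). Per kilobase of exon, Vegfa had the highest median level in young libraries, at 80.2 CPM per kb, followed by Vegfb at 59.1. The receptors and junction genes came next, with Tek at 10.6, Pecam1 at 9.61 and Kdr at 5.71 CPM per kb. Angpt2 stood at 4.37, Angpt1 at 3.38, Flt1 at 2.94, Nos3 at 2.47 and Vegfc at 1.75 CPM per kb.

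Upstream sequence is shown for the ligand Vegfa and for its receptors Kdr and Flt1 and the angiopoietin receptor Tek, since these receptors moved together between libraries. The RefSeq table of GRCm38.p6 promoters matched 6 of the 10 genes. Angpt1, Angpt2, Pecam1 and Nos3 are named only. Each sequence gives the 250 bases before the RefSeq start on the gene's own strand, with the 5-base core of the hypoxia response element, ACGTG or GCGTG on either strand, in capitals.
Vegfa, chr17:46032378-46032627, minus strand: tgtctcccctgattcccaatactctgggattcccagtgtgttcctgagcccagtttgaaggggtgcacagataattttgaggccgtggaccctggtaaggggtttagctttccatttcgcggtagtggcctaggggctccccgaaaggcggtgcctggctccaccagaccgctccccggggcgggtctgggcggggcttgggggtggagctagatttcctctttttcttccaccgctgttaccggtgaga
Kdr, chr5:75978456-75978705, minus strand: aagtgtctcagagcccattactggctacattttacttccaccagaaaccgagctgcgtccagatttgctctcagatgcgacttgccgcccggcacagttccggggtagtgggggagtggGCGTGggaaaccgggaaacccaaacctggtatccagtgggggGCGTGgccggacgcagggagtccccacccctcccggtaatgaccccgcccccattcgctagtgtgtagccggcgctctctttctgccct
Flt1, chr5:147726012-147726261, minus strand: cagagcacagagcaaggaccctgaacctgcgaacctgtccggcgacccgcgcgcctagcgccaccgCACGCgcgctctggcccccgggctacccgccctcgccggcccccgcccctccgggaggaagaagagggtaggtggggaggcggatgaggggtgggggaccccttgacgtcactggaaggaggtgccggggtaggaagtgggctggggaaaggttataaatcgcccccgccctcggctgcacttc
Tek, chr4:94739039-94739288, plus strand: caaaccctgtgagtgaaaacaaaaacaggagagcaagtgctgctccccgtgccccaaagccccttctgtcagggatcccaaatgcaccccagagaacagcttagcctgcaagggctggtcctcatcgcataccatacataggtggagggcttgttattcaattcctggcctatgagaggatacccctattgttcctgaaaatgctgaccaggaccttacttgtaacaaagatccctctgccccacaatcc
GCGTG was found 2 times upstream of Kdr, starting at -131 and -89 from the start, and 1 time upstream of Flt1, at -184. Neither core was found in the windows of Vegfa and Tek shown. Of the matched genes not shown, Vegfb had GCGTG 2 times and Vegfc had neither core. Over the 250 bases of 32851 mouse promoters, 28.2% held GCGTG and 16.6% held ACGTG. A second RefSeq start of Vegfa, inside the gene (chr17:46025164-46025413), had both cores, but 218 of its 250 bases lie in annotated exons of Vegfa. The E-box CACGTG, the core bound by the clock factors Bmal1 and Clock, was in none of the 7 windows of the matched genes and in 6.02% of all promoters. The GC content was 70.4% upstream of Flt1, 61.6% for Kdr, 59.2% for Vegfa and 51.2% for Tek, against a median of 52.4% over all promoters. These matches describe letters only.

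Nephritic kidneys held less RNA of the growth factor Vegfa, of the receptors Kdr, Flt1 and Tek and of both angiopoietins than young kidneys, while Nos3 was slightly higher and Pecam1 did not pass the test. Of the 10 genes, 8 were lower and 1 higher in nephritic mice at an adjusted p of at most 0.05, by edgeR's quasi-likelihood test over 57 libraries with time point and set as covariates. Among all 17521 genes tested, 33.9% were called lower and 28.1% higher. The median log2 change of the 10 genes was -0.36, against -0.03 over all genes tested. Levels are given as CPM, the counts of a gene scaled for sequencing depth with TMM library sizes, and are comparable between libraries for 1 gene.

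**Figure D1:**
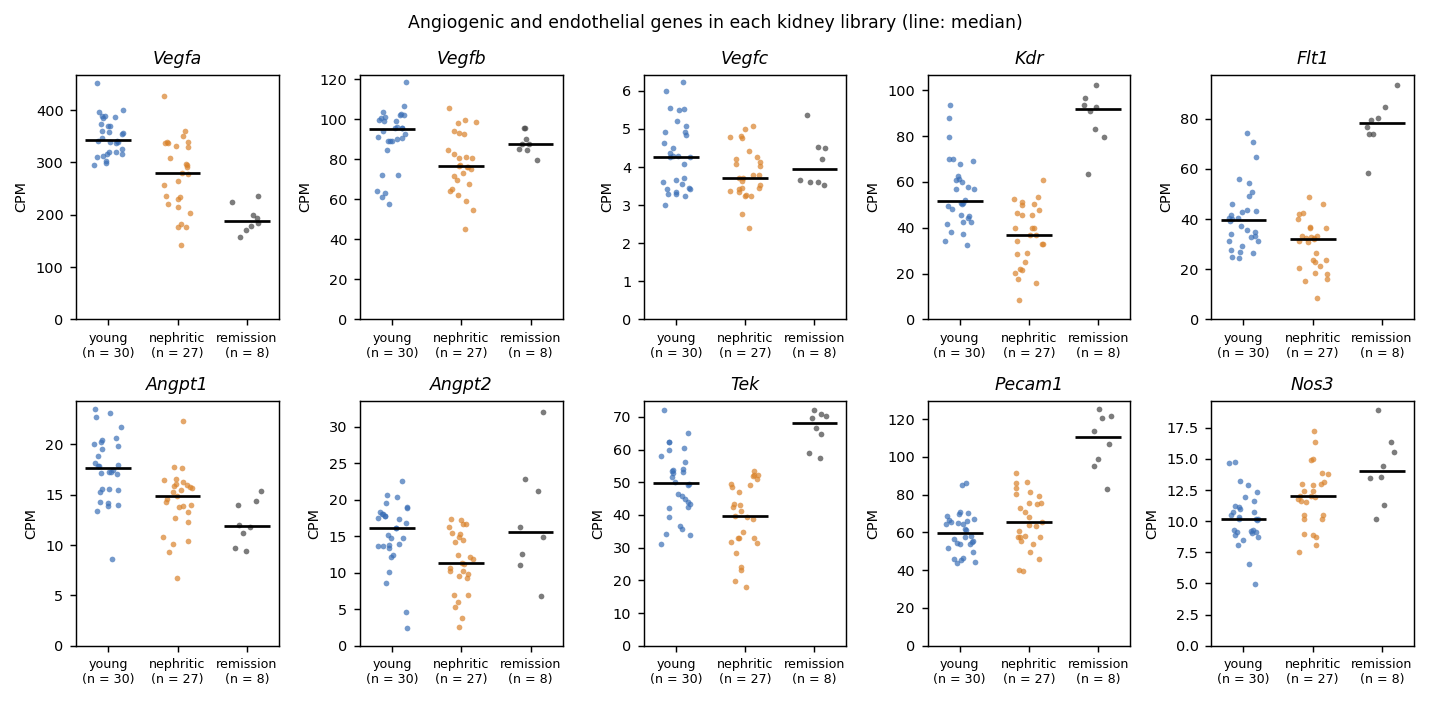
CPM (y axis, linear, from 0) of each gene in every original library of young (30), nephritic (27) and remission (8) mice, with a line at the median. The median of Vegfa is 344 CPM in young and 279 in nephritic libraries of all times, and 189 in remission libraries, which are of ZT0 and ZT12 only. For Kdr these medians are 51.6, 37.0 and 91.8 CPM.

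Vegfa, the main angiogenic ligand, ranged from 296 to 452 CPM in young libraries (median 344) and from 142 to 427 CPM in nephritic libraries (median 279). The 2 ranges overlapped, but 16 of the 27 nephritic libraries lay below every young library. The log2 change was -0.38 (SE 0.07, adjusted p = 5.84e-06), or 0.768-fold. Vegfb, a ligand of Flt1, ranged from 57.5 to 119 CPM in young (median 94.9) and from 44.9 to 106 CPM in nephritic libraries (median 76.7). Vegfb changed by -0.24 on the log2 scale (SE 0.06, adjusted p = 0.00112), and 2 nephritic libraries lay below all young ones. Vegfc, the lymphatic growth factor, was the scarcest of the 3 ligands, with a median of 4.28 CPM (3.00 to 6.24) in young and 3.71 CPM (2.39 to 5.09) in nephritic libraries. The log2 change of Vegfc was -0.18 (SE 0.07, adjusted p = 0.0181). This call was lost on leaving out any 1 of 21 mice (log2 change -0.20 to -0.14 over 57 omissions) and in Set 2 alone, where the log2 change was -0.04 (adjusted p = 0.637).

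Kdr, the signalling receptor for Vegfa, had the largest fall of the 10. It ranged from 32.4 to 93.6 CPM in young libraries (median 51.6) and from 8.55 to 60.9 CPM in nephritic libraries (median 37.0), and 9 nephritic libraries lay below all 30 young ones. The log2 change was -0.65 (SE 0.13, adjusted p = 2.56e-05), or 0.636-fold. Flt1, the decoy-like receptor, ranged from 24.7 to 74.5 CPM in young (median 39.6) and from 8.61 to 48.7 CPM in nephritic libraries (median 31.9), with 10 nephritic libraries below all young ones. Flt1 changed by -0.47 on the log2 scale (SE 0.12, adjusted p = 0.000864). The lowest value of both receptors came from HIL5LL, a nephritic mouse of ZT12 in the first set, in which Pecam1 was also the lowest of all nephritic libraries. In Set 2 alone Kdr remained lower at a log2 change of -0.45 (adjusted p = 0.00097), Flt1 at -0.28 (adjusted p = 0.0226) and Vegfa at -0.22 (adjusted p = 0.00398).

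The angiopoietin system was lower at both ligands and at the receptor. Angpt1, the Tek agonist, ranged from 8.63 to 23.5 CPM in young (median 17.6) and from 6.69 to 22.4 CPM in nephritic libraries (median 14.9). Its log2 change was -0.35 (SE 0.07, adjusted p = 4.4e-05), and 24 of 27 nephritic libraries lay below the young median. Angpt2 ranged from 2.41 to 22.6 CPM in young (median 16.1) and from 2.55 to 17.3 CPM in nephritic libraries (median 11.4). The groups overlapped over nearly their whole range, and the log2 change was -0.47 (SE 0.15, adjusted p = 0.00643). The Angpt2 call was lost in Set 2 alone (log2 change -0.32, adjusted p = 0.0653) and without the 9 libraries holding adrenal RNA (log2 change -0.39, adjusted p = 0.0602). Tek, the receptor of both, ranged from 31.0 to 72.0 CPM in young (median 49.9) and from 18.04 to 53.5 CPM in nephritic libraries (median 39.8). Tek changed by -0.36 on the log2 scale (SE 0.09, adjusted p = 0.00063), with 5 nephritic libraries below all young ones.

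The general endothelial genes went the other way or did not pass. Pecam1 ranged from 43.6 to 86.4 CPM in young (median 59.8) and from 39.5 to 91.3 CPM in nephritic libraries (median 65.3). Its log2 change was 0.12 (SE 0.07, adjusted p = 0.151), and it passed as higher in Set 2 alone (log2 change 0.22, adjusted p = 0.00761). It also passed without HIL5LL (0.17, adjusted p = 0.0225), without nephritic ZT0 replicate 3 (0.15, adjusted p = 0.0431) and without young ZT20 replicate 3 (0.16, adjusted p = 0.04). Nos3 ranged from 4.94 to 14.7 CPM in young (median 10.2) and from 7.54 to 17.2 CPM in nephritic libraries (median 12.0), with 4 nephritic libraries above all young ones. The change of Nos3 was 0.20 on the log2 scale (SE 0.07, adjusted p = 0.0106), or 1.15-fold. With ZT0 and ZT12 only, the calls of Vegfb (adjusted p = 0.108), Vegfc (0.189) and Nos3 (0.0662) were lost.

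**Figure D2:**
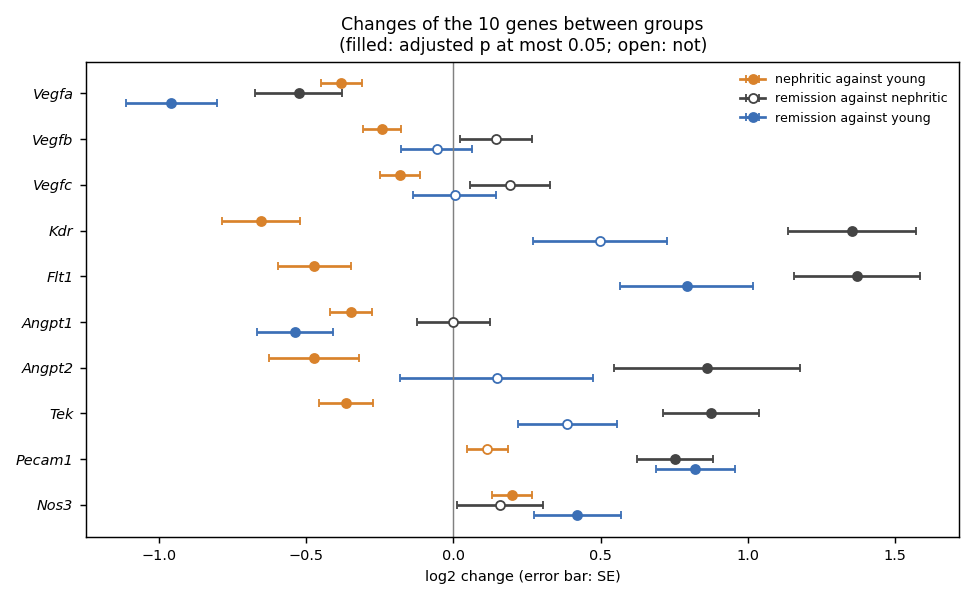
Log2 change of each gene (x axis, bars show the SE) in nephritic against young, remission against nephritic and remission against young mice, filled where the adjusted p was at most 0.05. Kdr and Flt1 lie below 0 in nephritic against young and at 1.35 and 1.37 in remission against nephritic mice, and Vegfa lies below 0 in all 3 comparisons.

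Other endothelial genes moved in both directions. For the counts of this and the further lists, 28.1% of all genes tested were called higher and 33.9% lower in nephritic mice. Of 15 pan-endothelial markers, 3 were higher, 3 lower and 9 did not pass, with a median log2 change of 0.07. Ecscr, which encodes an endothelial surface protein, rose (log2 change 0.74), as did the sphingosine receptor gene S1pr1 (0.23), while the transcription factor gene Erg fell (-0.25). The summed level of the 15 markers was 331 to 658 CPM in young (median 507) and 252 to 710 CPM in nephritic libraries (median 522), and none was at 0. Per 100 CPM of these markers in the same library, the median of Kdr was 10.5 CPM in young and 7.43 in nephritic libraries and that of Flt1 was 7.72 and 5.84. On this scale Tek went from 9.58 to 7.91 and Pecam1 from 11.6 to 12.96 CPM. These ratios are a description, with no test.

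The endothelium of different renal vessels was described by 3 further lists. Among 6 peritubular and other vessel genes, 4 were lower and 1 higher, with a median log2 change of -0.23. The growth factor binding protein gene Igfbp3 fell (log2 change -0.58), as did Slc14a1 (-0.67), the urea transporter of the descending vasa recta, and Plac8 rose (1.36). Among 5 glomerular endothelial genes 2 were higher, Fbln2 (0.84) and Sost (0.62), and 1 was lower, Ehd3 (-0.32). Of 4 lymphatic genes 3 could be tested: Pdpn (0.66), which podocytes also express, and Lyve1 (0.93), which some macrophages express, were higher, and the lymphatic transcription factor gene Prox1, also active in tubule cells, was lower (-0.73). Plac8, Pdpn and Lyve1 are expressed in leukocytes or epithelium too, and the part of those cells in these values was not tested.

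Other members of the same pathways were counted from lists. None of 5 further genes of the VEGF family and its co-receptors (Vegfd, Pgf, Flt4, Nrp1 and Nrp2) passed, and their median log2 change was 0.02. Their lowest unadjusted p was 0.223, and none passed under edgeR's test. Of 4 partners of the angiopoietins, Svep1 (0.67) and Angpt4 (0.85) rose, and the receptor phosphatase gene Ptprb (-0.28) and Tie1 (-0.20), the second Tie receptor, fell. Of 8 endothelial activation genes 5 rose and 2 fell. The adhesion molecule genes Vcam1 (3.05) and Icam1 (1.53) rose, and Esm1 (-1.33), a gene that VEGF signalling is known to induce, fell. Apln (-0.70), the apelin gene of growing vessels, was the other that fell. Vcam1 is known to be made by injured tubule cells as well.

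Of 8 angiogenesis inhibitors 5 rose and 0 fell, led by Thbs2 (log2 change 1.23), Col18a1 (0.70), the precursor of endostatin, and Vash1 (0.63). In the nitric oxide pathway 4 of 11 genes rose and 1 fell. Nostrin (0.67) and Ddah2 (0.52) rose, and Ddah1 (-0.44), which degrades an inhibitor of nitric oxide synthase, fell. Of 14 hypoxia regulators and targets 2 rose and 7 fell: adrenomedullin (Adm, 0.65) rose, and the mitophagy gene Bnip3 (-0.47) and the oxygen sensor gene Egln1 (-0.26) fell. Of 7 Notch genes of vessels, Jag1 (0.26), Notch1 (0.19) and Jag2 (0.28) rose, and Dll4 (-0.41), the tip cell ligand that VEGF signalling is known to induce, fell.

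Podocytes and tubule cells, the known renal sources of Vegfa, were followed by their markers. Of 8 podocyte markers 4 rose and 1 fell, with Synpo at 0.45 and Magi2 at -0.24 on the log2 scale. All 10 proximal tubule markers fell, with Slc5a12 at -0.90, Cubn at -0.86 and Slc5a2 at -0.75. Of 8 loop and distal tubule markers 5 fell and 1 rose, with Calb1 at -1.06, Slc8a1 at -0.68 and Kng2 at -0.24. Of 8 collecting duct markers, Aqp2 rose (0.33) and Slc4a1 fell (-0.39). Of 10 pericyte, mesangial and fibroblast markers tested 7 rose and 1 fell, led by Col1a1 (2.14), Col3a1 (1.88) and Acta2 (1.00). The 3 tubular injury markers, Timp1 (5.19), Lcn2 (4.95) and Havcr1 (2.03), rose. Of 7 adrenal markers 4 were lower and 0 higher, among them Th (-4.85), Cyp11b1 (-4.76) and Hsd3b1 (-2.18), and of 5 clock genes Nr1d1 (-0.47), Dbp (-0.57) and Per3 (-0.37) were lower. The leukocyte markers Itgam (4.46), Lyz2 (2.61) and Itgax (3.21) had the smallest p of theirs. The summed proximal tubule markers ran from 10781 to 17459 CPM in young and from 1870 to 13577 CPM in nephritic libraries, and their part in the fall of Vegfa was not tested.

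**Figure D3:**
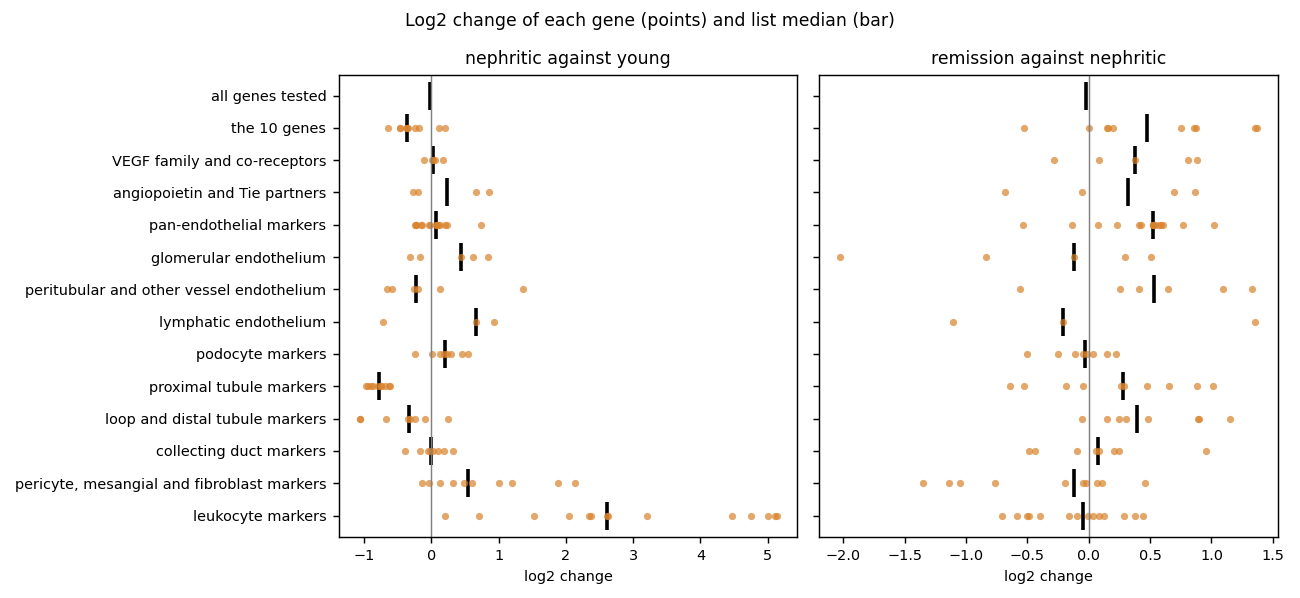
Log2 change of each tested gene (points) and the median of its list (bars) in nephritic against young (left) and remission against nephritic mice (right). The median of the 10 genes is -0.36 on the left and 0.47 on the right, where that of the pan-endothelial markers is 0.07 and 0.52.

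Nephritic mice differed among themselves, and the mean log2 CPM of 3 tubular injury genes (Lcn2, Havcr1 and Timp1) was used as a scale for this. Over 27 nephritic libraries, with time point and set as covariates, 4 of the 10 genes fell as the score rose and none rose, against 24.1% and 24.8% of 16872 genes tested. Vegfa changed by -0.14 per log2 unit of score (SE 0.02, adjusted p = 4.44e-05), Vegfb by -0.12 (SE 0.02, adjusted p = 3.08e-05) and Angpt2 by -0.19 (SE 0.05, adjusted p = 0.0038). Tek changed by -0.10 (SE 0.04, adjusted p = 0.0483), a call that was lost on leaving out any 1 of 20 of the 27 mice (highest adjusted p 0.21). Kdr (-0.12, adjusted p = 0.0701) and Flt1 (-0.12, adjusted p = 0.0566) did not pass, and Pecam1 (-0.03, adjusted p = 0.41) and Nos3 (0.01, adjusted p = 0.827) had the smallest slopes beside Vegfc (-0.02, adjusted p = 0.527). Without nephritic ZT16 replicate 2, a mouse with a score of 7.16 and 34.0 CPM of Kdr, 7 of the 10 passed, Kdr (-0.18) and Flt1 (-0.16) among them, and without nephritic ZT0 replicate 2 only 2 did. These settings called 48.0% and 41.9% of all genes. In Set 2 alone 2 passed, Vegfa and Vegfb, where 44.8% of all genes did. Of 7 angiogenesis inhibitors tested, 7 rose with the score, and of 10 proximal tubule markers 9 fell.

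**Figure D4:**
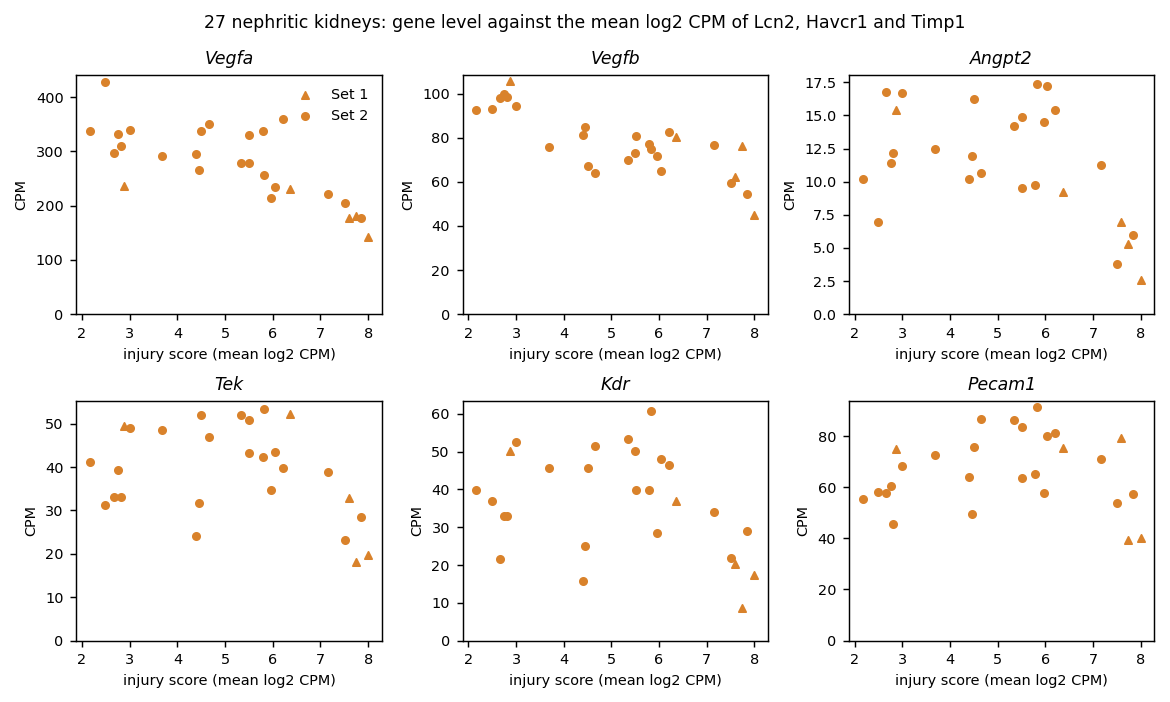
CPM of 6 genes (y axis, from 0) against the injury score (x axis, mean log2 CPM of Lcn2, Havcr1 and Timp1) in 27 nephritic mice, with triangles for the first set and circles for Set 2. Vegfa and Vegfb decline along the axis, while Kdr spreads from 8.55 to 60.9 CPM.

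After remission induction the endothelial receptors were higher than in nephritic mice. Vegfa was lower, a call that was lost with the sequencing run as a covariate, as given below. In a fit of the 35 libraries of ZT0 and ZT12, 5 of the 10 genes were higher and 1 lower in remission than in nephritic mice, against 17% and 20.5% of 16841 genes tested. Kdr ranged from 63.5 to 102 CPM in the 8 remission libraries (median 91.8) and from 8.55 to 51.4 CPM in the 13 nephritic ones (median 37.0). All 8 lay above all 13, and the log2 change was 1.35 (SE 0.22, adjusted p = 1.21e-05), or 2.56-fold. Flt1 likewise did not overlap, at 58.5 to 93.4 CPM (median 78.2) against 8.61 to 48.7 CPM (median 31.2). The change was 1.37 on the log2 scale (SE 0.21, adjusted p = 8.06e-06). Tek, at 57.6 to 72.2 CPM in remission (median 68.1) and 18.04 to 52.3 CPM in nephritic libraries (median 39.3), was the only other gene of the 10 without overlap, with a log2 change of 0.88 (SE 0.16, adjusted p = 9.68e-05). Over all 16841 genes, 1.31% had every remission library above every nephritic one.

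Pecam1 ranged from 82.8 to 125 CPM in remission libraries (median 110.4) and from 39.5 to 86.6 CPM in nephritic ones (median 72.7), with 7 of 8 above all nephritic libraries. Its log2 change was 0.75 (SE 0.13, adjusted p = 3.41e-05). Angpt2 varied widely in remission, from 6.78 to 32.1 CPM (median 15.6), against 2.55 to 16.3 CPM (median 9.22) in nephritic libraries. Its log2 change of 0.86 (SE 0.32, adjusted p = 0.0314) rested on few mice: it was lost without s9 (0.79, adjusted p = 0.0679), without remission ZT0 replicate 2 (0.66, adjusted p = 0.101) or 4 (0.81, adjusted p = 0.0539), and without nephritic ZT0 replicate 4 (0.76, adjusted p = 0.0609) or 6 (0.80, adjusted p = 0.0578). Vegfb (0.14, adjusted p = 0.366), Vegfc (0.19, adjusted p = 0.267), Nos3 (0.16, adjusted p = 0.414) and Angpt1 (0.00, SE 0.12, adjusted p = 0.998) did not pass.

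Vegfa stood apart from its receptors. In remission libraries it ranged from 157 to 236 CPM (median 189), within the nephritic range of 142 to 427 CPM (median 236), and its log2 change from nephritic mice was -0.52 (SE 0.15, adjusted p = 0.00569). Against the 14 young libraries of ZT0 and ZT12, which ranged from 311 to 388 CPM (median 347), all 8 remission libraries lay below, with a log2 change of -0.96 (SE 0.15, adjusted p = 8.78e-06), or 0.515-fold. Over all genes, 4.29% had every remission library below every young one. Leaving out s9 changed neither call, with -0.52 (adjusted p = 0.00994) and -0.96 (adjusted p = 2.79e-05). Without s9 the receptors stood at 1.34 for Kdr (adjusted p = 3.66e-05), 1.37 for Flt1 (adjusted p = 2.28e-05) and 0.73 for Pecam1 (adjusted p = 0.000121) against nephritic mice, and Tek at an adjusted p of 0.000267. Without s9, 4 of the 10 genes were higher and 1 lower, against 15.6% and 19.1% of all genes. Those that did not pass were Vegfb at 0.12 (adjusted p = 0.5), Vegfc at 0.21 (adjusted p = 0.27), Angpt1 at 0.03 (adjusted p = 0.897) and Nos3 at 0.15 (adjusted p = 0.484), besides Angpt2. Per 100 CPM of the pan-endothelial markers, Vegfa had a median of 67.5 CPM in young and 56.0 in nephritic libraries of all times. In remission libraries this median was 27.4, or 27.8 without s9. The divisor differed too: the summed markers had a median of 507 CPM in young, 522 in nephritic and 694 in remission libraries. The summed podocyte markers ran from 485 to 680 CPM in remission libraries (median 538) and the summed proximal tubule markers from 7869 to 11904 CPM.

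The sequencing run could be set apart only through the repeat libraries, and this changed some of these calls. In these fits each repeat entered beside the original library of its mouse, with no term for mouse. Their p-values therefore treat both libraries of a mouse as independent. With 4 repeats and a run covariate, Kdr (1.13, adjusted p = 0.00871), Flt1 (1.25, adjusted p = 0.00411), Tek (0.83, adjusted p = 0.0112) and Pecam1 (0.50, adjusted p = 0.0365) were still higher in remission than in nephritic mice. Vegfa (-0.24, adjusted p = 0.382) and Angpt2 (0.73, adjusted p = 0.22) no longer passed. The same 2 were lost with 3 repeats, without that of RX11RU. Against young mice, Vegfa stayed lower (-0.73, adjusted p = 0.00733) and Pecam1 higher (0.58, adjusted p = 0.0225). In the repeat of RX11RU, Vegfa differed from the original by -0.58 on the log2 scale, and in the other 3 repeats it differed by -0.08 to 0.09.

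Against young mice, 3 of the 10 genes were higher and 2 lower in remission, where 21.2% and 20.4% of all genes tested were. This comparison shares its remission libraries with the one above. Pecam1 (log2 change 0.82, SE 0.13, adjusted p = 9.16e-06), Flt1 (0.79, SE 0.23, adjusted p = 0.00546) and Nos3 (0.42, SE 0.15, adjusted p = 0.0226) were higher. Nos3 ranged from 10.2 to 18.97 CPM in remission libraries (median 14.02), and its call was lost without remission ZT12 replicate 3 (0.36, adjusted p = 0.0647) or ZT0 replicate 4 (0.38, adjusted p = 0.0505). Angpt1 was lower (-0.54, SE 0.13, adjusted p = 0.00112), at 9.40 to 15.3 CPM in remission (median 11.9) against 13.3 to 23.5 CPM in young libraries (median 18.01). Kdr (0.50, SE 0.23, adjusted p = 0.0786) and Tek (0.39, SE 0.17, adjusted p = 0.0628) did not pass, although both passed as higher when only these 2 groups were fitted (0.69, adjusted p = 2.67e-05, and 0.47, adjusted p = 0.000253). Without s9 all 5 calls against young mice held, with Nos3 at 0.41 (adjusted p = 0.0382), and Kdr (0.48, adjusted p = 0.113) and Tek (0.38, adjusted p = 0.0927) again did not pass. Markers of other cells moved in this comparison too: all 14 leukocyte markers were higher (median log2 change 2.55), 5 of 10 proximal tubule markers were lower and none higher (median -0.66), and all 7 adrenal markers were lower (median -6.94). Without s9 the leukocyte and adrenal counts did not change, and 4 proximal tubule markers were lower. The part of these cells in the values of Pecam1, which some leukocytes carry, and of the other genes was not tested. The fits of remission and of the injury score were not repeated without the libraries holding adrenal RNA. With 4 repeats and a run covariate, Flt1 (0.68, adjusted p = 0.136), Angpt1 (-0.40, adjusted p = 0.116) and Nos3 (0.35, adjusted p = 0.248) no longer passed.

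The endothelial lists did not all move one way in remission. For the counts of these lists, 17% of all genes tested were called higher and 20.5% lower in remission than in nephritic mice. Of 15 pan-endothelial markers 11 were higher and 1, Sox17, was lower in remission than in nephritic mice, with a median log2 change of 0.52 against -0.02 over all genes tested. Their summed level was 549 to 784 CPM (median 694) in remission libraries. Of the other VEGF genes, Flt4 (0.88), Nrp1 (0.38) and Nrp2 (0.81) rose, and of the angiopoietin partners Tie1 (0.69) and Ptprb (0.87) did. Plvap (1.33), the gene of fenestral diaphragms, and Igfbp3 (1.09) rose among the peritubular genes, and Esm1 (1.87) and Apln (1.10), lower in nephritis, rose among the activation genes, where Vcam1 (-1.55), Icam1 (-0.74) and Edn1 (-1.87) fell. Of 5 glomerular endothelial genes, Ehd3 (0.51) was higher and Gata5 (-2.03) and Fbln2 (-0.83) were lower, with a list median of -0.12. Of 3 lymphatic genes tested Prox1 (1.35) was higher, with a list median of -0.21, and of 11 nitric oxide genes 0 were higher and Cav1 (-0.38) and Nostrin (-0.45) were lower. Of 14 leukocyte markers 1 was higher and 0 lower. Without s9, 10 pan-endothelial markers were higher and 0 lower, and the counts of the VEGF, angiopoietin partner, peritubular, glomerular, lymphatic, activation, nitric oxide and leukocyte lists did not change. Of all genes tested without s9, 15.6% were called higher and 19.1% lower. Per 100 CPM of the pan-endothelial markers, the median in remission libraries was 12.2 for Kdr, 10.5 for Flt1, 9.40 for Tek and 15.7 for Pecam1, and without s9 it was 12.5, 10.6, 9.40 and 15.7. For Kdr the range on this scale was 10.4 to 17.3 in remission libraries, with or without s9. It was 2.21 to 10.1 in nephritic and 6.31 to 17.9 in young libraries of all times.

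Few of these genes passed the test of time of day. In young mice 2 of the 10 varied over the 6 time points, against 39.8% of 16521 genes tested. Vegfa was highest at ZT16, with 452, 388, 397 and 373 CPM in the 4 mice, and lowest at ZT4, with 312, 299, 339 and 303 CPM. The adjusted p was 0.00588 over all 6 time points, and the set-adjusted means spanned 0.36 on the log2 scale. Vegfc stood at 4.37 to 5.53 CPM at ZT16 and at 3.00 to 5.07 CPM at ZT12 (adjusted p = 0.00494), a span of 0.62 on the log2 scale. Neither passed without the libraries holding adrenal RNA, where the adjusted p was 0.252 for Vegfa and 0.111 for Vegfc. Of the 4 young libraries of ZT16, 3 had over 100 counts of Cyp11b1. Over all genes, 24.4% were called without these libraries.

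In nephritic mice only Angpt1 varied over the day (adjusted p = 0.0203), against 21.6% of 16872 genes tested. It was lowest at ZT12, at 6.69 to 13.8 CPM in 6 mice, and highest at ZT8, at 16.1, 17.7, 17.8 and 22.4 CPM. Its set-adjusted means spanned 0.81 on the log2 scale. In Set 2 alone, 7 of the 10 passed, including Pecam1 (adjusted p = 0.00225), Flt1 (0.0105) and Kdr (0.0109), against 26.9% of all genes, and with a 24 h cosine and sine none did. Without HIL5LL, Pecam1 (adjusted p = 0.0125) passed besides Angpt1. Pecam1 was highest at ZT4, with 91.3, 86.2, 83.6 and 80.1 CPM, and stood at 45.8 to 68.4 CPM at ZT8. Kdr spanned 1.22 on the log2 scale between ZT4, at 48.0 to 60.9 CPM, and ZT16, at 15.8 to 34.0 CPM.

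The time courses of the 2 groups were not shown to differ. None of the 10 genes passed edgeR's test of the diagnosis by time terms, where 6.27% of 17521 genes did, and only Angpt1 had an unadjusted p under 0.05 (0.026, adjusted p = 0.136). DESeq2 and limma called 0 of the 10 as well, and 12.5% and 4.6% of all genes. The largest difference between nephritic and young set-adjusted means was at ZT16 for Kdr (-1.21) and Flt1 (-1.06), from 3 nephritic and 4 young mice. The sign was not the same at every time: at ZT4 Kdr (0.08), Flt1 (0.02) and Tek (0.17) stood slightly higher in nephritic mice, as did Angpt2 at ZT8 (0.38) and Vegfc at ZT12 (0.32). The log2 amplitude of a 24 h cosine fitted to Kdr was 0.11 (SE 0.09) for young and 0.33 (SE 0.17) for nephritic libraries, and for Vegfa these were 0.14 (SE 0.03) and 0.10 (SE 0.09).

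**Figure D5:**
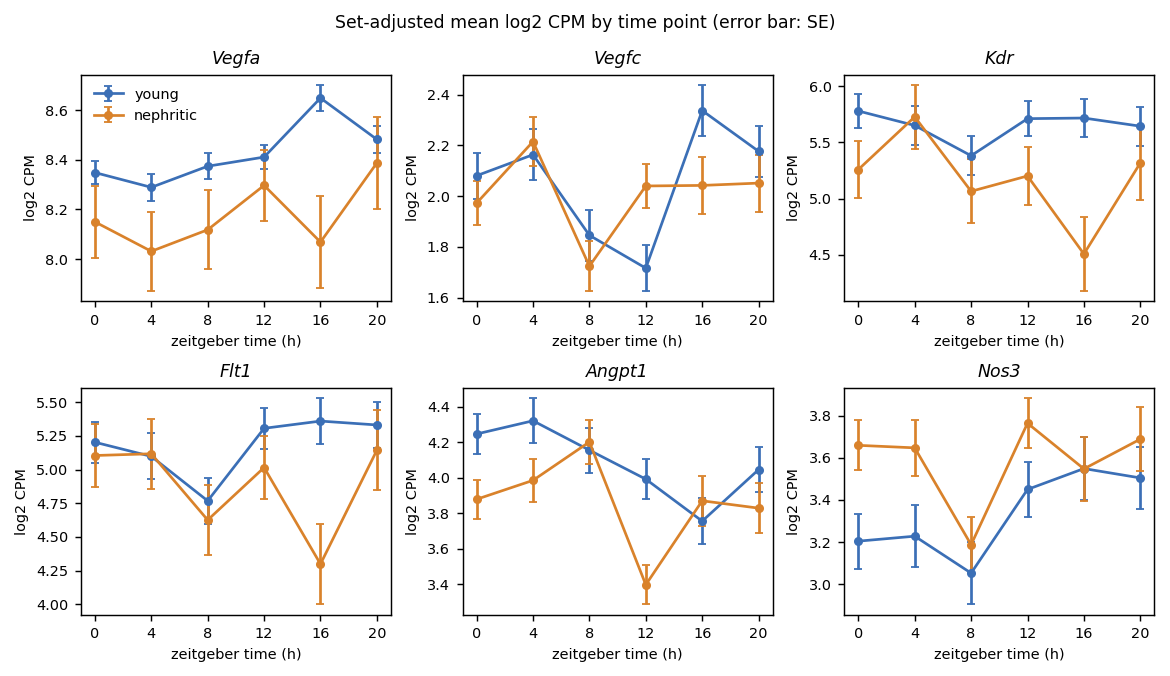
Set-adjusted mean log2 CPM (y axis, bars show the SE) of 6 genes at the 6 zeitgeber times (x axis, h) in young and nephritic mice. Vegfa peaks at ZT16 in young mice, and Kdr and Flt1 are lowest at ZT16 in nephritic mice.

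The genes fell into groups by how they varied between mice. Residual log2 CPM, after the means of diagnosis by time point and of set were removed, was compared over the 57 young and nephritic libraries among 14174 genes with a mean of at least 1 CPM, as a description that also carries what libraries share, such as depth. Kdr and Flt1 were each other's most similar gene (Spearman's rho 0.95), followed for both by Mmrn2 (0.92 and 0.91), an endothelial matrix gene. Tek was nearest to Mmrn2 (0.93), She (0.91) and Adgrl4 (0.91), and Pecam1 to Tie1 (0.90), Cdh5 (0.87) and Tek (0.87). Nos3 was nearest to Dock6 (0.79), Rasip1 (0.76) and Trim3 (0.75). Kdr was also near Tek (0.90), and Flt1 near Ptprb (0.90).

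The ligands did not share this company. Vegfa was nearest to Hoga1 (0.87), a metabolic enzyme gene, Cacna2d2 (0.87) and Lrp4 (0.86), and its median rho was 0.71 with the 10 proximal tubule markers, 0.54 with the 8 podocyte markers and 0.25 with the 15 pan-endothelial markers. Vegfb was nearest to Tecr (0.90), Rfng (0.88) and Ndufb10 (0.84), and Vegfc to Tyw3 (0.79) and Stat5b (0.73). Angpt1 was nearest to Mfsd1 (0.80), Gdi2 (0.80) and Ildr2 (0.79), with a median rho of -0.29 with the pan-endothelial markers. Angpt2 was nearest to Scel (0.88), Slc14a1 (0.85) and Corin (0.84), of which Slc14a1 marks the vasa recta of the medulla. The lowest Angpt2 of all original libraries, 2.41 CPM in young ZT0 mouse ZT00, stood beside 1.22 CPM of Slc14a1, 1.38 CPM of Scel and 0.83 CPM of Corin in the same library.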

How the data were processed

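The deposited files hold whole-number read counts per gene symbol for 69 libraries. Per the paper's methods, the authors counted reads that aligned uniquely to exons and splice junctions of the mouse genome with at most 2 mismatches; the submitters' processing notes name HISAT and mm10. Of 24538 symbols, 15 had no values. The 65 original libraries, each 1 mouse, were analysed, and the 4 repeats entered only as named.

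Genes with at least 100 counts over the libraries of a fit were tested with edgeR 4.0.16 (R 4.3.3), TMM library sizes and quasi-likelihood F tests. Time point and RNASeq set were covariates, and set membership was inferred by matching library titles to the study's sample table. An adjusted p (Benjamini-Hochberg over all genes tested) of at most 0.05 was a call. Log2 CPM used a prior count of 2. DESeq2 1.42.0 and limma 3.58.1, other scalings, sample subsets and omission of each mouse were alternatives. The tests were checked on simulated counts. Positions are from GENCODE M21 and promoters from RefSeq GRCm38.p6. The 10 genes and all other lists were chosen with earlier results of these data known. All 10 genes are named, and from each other list the 3 with the smallest p among those called in nephritic against young mice; further genes named were chosen after their values were seen. Some genes that these rules name are not reported here. Depth limits Vegfc, with 45 to 250 counts in a library, more than the abundant genes.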

Additional observations from a re-analysis of the deposited data

Results flagged for a closer look

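In 120 groups of 4 to 7 mice (1 gene at 1 diagnosis and time point), 7 held a highest or lowest mouse set apart from the rest by Dixon's criterion, a rate near the 5% that chance gives. Vegfc was 4.99 CPM in nephritic ZT12 mouse RX8RU, against 3.25 to 3.79 CPM in the other mice, and 4.50 CPM in remission ZT12 mouse s10, against 3.52 to 3.67 CPM. Flt1 was 42.6 CPM in nephritic ZT4 mouse RX11LU, the mouse nearest to the repeat labelled RX11RU, and 31.9 to 32.6 CPM in the others. Angpt1 was 23.2 CPM in young ZT20 mouse ZT20LU, which had 4164 counts of the adrenal gene Cyp11b1, and 14.2 to 15.6 CPM in the others. Young ZT0 mouse ZT00 was set apart for Angpt2, at 2.41 CPM against 13.9 to 19.03 CPM, and for Nos3, at 4.94 CPM against 9.10 to 11.97 CPM. Pecam1 was 39.5 CPM in nephritic ZT12 mouse HIL5LL, which had an injury score of 7.74, and 72.7 to 86.6 CPM in the others.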

How the results depend on the processing

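Of 570 values recomputed under another setting, 510 kept their direction and their side of the threshold, and of 2680 with 1 mouse left out, 2573 did. For time of day in young mice the number of the 10 genes called was 4 with DESeq2 (46.1% of all genes), 4 with a cosine fit (39.8%), 1 without the set covariate (39.2%) and 0 without the adrenal libraries (24.4%). In nephritic mice it was 7 in Set 2 alone (26.9%) and 0 with a cosine fit (2.15%). For remission against young it was 8 with only the groups compared (51.7%) and 2 with either 4 or 3 repeats and a run covariate (13.8% and 10%). For the injury slope it was 2 in Set 2 alone (44.8%). With 1 mouse left out the number called ran from 2 to 4 for time in young (4 without young ZT20 replicate 3, with 42.0% of all genes), from 1 to 2 for time in nephritic (2 without nephritic ZT12 replicate 2, with 22.9%), from 2 to 7 for the injury slope, from 8 to 9 for nephritic against young, from 5 to 6 for remission against nephritic and from 4 to 7 for remission against young; the difference in time course stayed at 0. The cause of these shifts was not tested.

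The signs that turned belonged to values near 0. Angpt1 in remission against nephritic was -0.0029 without the filter on low counts, -0.012 without the set covariate, -0.043 in Set 2 alone and -0.020 with only the groups compared, and ran from -0.092 to 0.037 with 1 mouse left out. In remission against young, Vegfc was -0.015 without the filter and -0.023 without the set covariate (-0.046 to 0.040 with 1 mouse left out), Vegfb was 0.052 without the set covariate, and Angpt2 ran from -0.048 to 0.28 with 1 mouse left out. On the injury scale Nos3 was -0.0016 without the set covariate, -0.0024 with Havcr1 alone and -0.0057 to 0.029 with 1 mouse left out, and Pecam1 was 0.014 in Set 2 alone. Over all genes, 3921 in place of 6583 varied with time in young mice without the adrenal libraries. In nephritic mice 5646 did with DESeq2, 1994 without the set covariate and 362 with a cosine fit, in place of 3646. The time courses differed for 2186 with DESeq2, 1715 in Set 2 alone, 726 without the adrenal libraries and 638 to 1771 with 1 mouse left out, in place of 1099. With a run covariate, 4001 and 3606 genes (4 and 3 repeats) in place of 6319 differed between remission and nephritic, and 2342 and 1693 in place of 7002 between remission and young mice. No paired analysis was possible because the labels give no replicate numbers and each library is a different mouse; nephritic mice of different times share codes in their names (RX10, RX11, RX12), whose meaning the labels do not give, and no block on these codes was tried. The remission libraries had the lowest depth, and their run and diagnosis could be separated only through the repeats.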
